A study of Mus musculus with 10 samples.

Results

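Fatty acid uptake and mitochondrial oxidation was examined as a set of 34 named genes in mouse hearts, all 34 of which were found in the table of 78298 genes by matching Ensembl identifiers to GENCODE symbols on GRCm39. RNA was sequenced from the hearts of female mice on a C57BL/6J background, collected at 72 h from a single dose of 30 mg/kg doxorubicin given into the peritoneum. Doxorubicin is an anthracycline chemotherapy drug known for damage to heart muscle. One group of 5 libraries is labelled wild type and the other group of 5 is labelled as a germline knockout of p38δ, the stress-activated kinase encoded by Mapk13, so the gene would be absent from every cell of the animal and not only from heart muscle. All 10 animals received the drug, and hearts without it were not analysed here, so the effect of doxorubicin itself was not measured. The age of the animals is not given in the sources used here. Libraries are called WT 1 to WT 5 and KO 1 to KO 5 below, names that stand for the genotype label and nothing more.

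The adult heart takes most of its energy from long-chain fatty acids. CD36 and the fatty acid transport proteins bring them across the cell membrane, FABP3 carries them through the cytosol, and acyl-CoA synthetases activate them. The carnitine shuttle moves the activated acyl groups into the mitochondrion, where each turn of beta-oxidation dehydrogenates, hydrates, dehydrogenates again and cleaves the chain, and electron transfer flavoprotein passes the electrons on to the respiratory chain. Nuclear receptors of the PPAR and ERR families are the known transcriptional drivers of these genes, and malonyl-CoA is the known brake on entry into the mitochondrion.

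Library totals ran from 21403189 to 40627138 counts, and the member with the fewest reads in any library still had 174 counts. Mapk13 held 292 counts in WT 1, 5, 2, 1 and 4 in WT 2 to WT 5, and 9 to 15 in the KO libraries. Every KO library thus held more than each of WT 2 to WT 5, not the lower level that loss of the transcript would give. All of these counts were small, and the targeted gene did not check the labels. WT 1 stood apart in markers of other tissues, given here as the sum of each marker list in CPM, the share of a library's counts scaled up to a fixed total and corrected by TMM factors. Its 9 airway and alveolar markers summed to 858 CPM. The same sum was 75.7 in WT 3, 0.232 to 0.332 in WT 2, WT 4 and WT 5, and 0.18 to 0.908 in the KO libraries. Most of it was 1 airway gene, Scgb1a1, at 732 CPM in WT 1 and 68.3 in WT 3. The alveolar gene Sftpc stood at 20.5 CPM in WT 1 and 0 in WT 3. The 7 fast skeletal muscle markers summed to 502 CPM in WT 1 and at most 10.6 elsewhere, and the 9 adipocyte markers to 565 and at most 138. That 138, in KO 1, was nearly all Cidea and Lipe, at 40.1 and 96.5 CPM. The 6 atrial markers summed to 1408 CPM in WT 1 and at most 316 elsewhere, in WT 2. The 10 ventricular cardiomyocyte markers, which check the tissue label, were present in every library, at 21522 CPM in WT 1, 33495 to 50095 in WT 2 to WT 5 and 29176 to 62786 in the KO libraries. For this reason the counts and fold changes of the members are given with and without WT 1.

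A few stretches of sequence show why particular members are read together or with care. Hadha and Hadhb encode the α and β subunits of 1 enzyme complex, the mitochondrial trifunctional protein, and lie head to head on chromosome 5, with 64 bases between the canonical start of Hadha on the minus strand and that of Hadhb on the plus strand. The whole stretch is shown 5′ to 3′ on the plus strand of GRCm39, with no part in capitals.
Hadha to Hadhb, chr5:30360182-30360245: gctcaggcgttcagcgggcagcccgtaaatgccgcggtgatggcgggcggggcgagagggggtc
Acot1 and Acot2 are neighbouring genes on chromosome 12 (chr12:84056256-84065145 and chr12:84034428-84040647, both on the plus strand) for acyl-CoA thioesterases, the first cytosolic and the second mitochondrial, and their coding sequences, 1257 and 1359 bases long, were identical at 1178 of the 1236 bases that could be compared without a gap (95.3%). The longest run without a difference was 273 bases. Acot2 carries 123 coding bases before the point where Acot1 begins. The 120 bases from that point hold 13 differences, shown in capitals on the coding strand, 5′ to 3′.
Acot1: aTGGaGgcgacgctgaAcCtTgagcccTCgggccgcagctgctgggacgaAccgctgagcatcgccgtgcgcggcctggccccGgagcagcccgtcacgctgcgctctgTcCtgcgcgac
Acot2: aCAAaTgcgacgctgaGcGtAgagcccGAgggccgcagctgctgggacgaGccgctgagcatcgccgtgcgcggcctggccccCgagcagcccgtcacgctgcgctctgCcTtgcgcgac
Reads from the shared runs were divided between the pair by estimation, so the level of each is uncertain. The last stretch is the 250 bases before the canonical start of Eci1, the member with the largest difference between the groups, on the plus strand of chromosome 17. It is shown whole because it holds most of the short gap to Rnps1, the gene that ends 280 bases before Eci1 and that passed the test in the opposite direction.
Eci1, chr17:24645365-24645614: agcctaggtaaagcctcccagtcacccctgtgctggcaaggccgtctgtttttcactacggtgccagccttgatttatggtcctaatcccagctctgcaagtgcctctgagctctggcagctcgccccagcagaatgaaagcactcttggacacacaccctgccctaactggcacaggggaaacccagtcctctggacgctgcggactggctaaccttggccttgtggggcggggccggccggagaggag
The DR1 element bound by PPAR receptors, searched as AGGNCA followed after 1 base by another AGGNCA, was not found on either strand in the 250 bases before any of the 34 starts, where 0.232% of 13356 tested protein-coding genes held it. Within 2000 bases before the start it was found for Cpt2 and Crat, 5.88% of members, against 3.53% of the same 13356 genes.

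No member passed the test for a difference between the genotype labels. Of the 34 members, all of which passed the filter on low counts, 0 passed an adjusted p threshold of 0.05 in either direction (edgeR quasi-likelihood test with Benjamini-Hochberg adjustment over 16700 genes), where 0.24% of all tested genes were called higher and 0.114% lower in the KO libraries, 0.353% in all. Without WT 1 it was again 0 members, against 0.446% of genes. At an unadjusted p under 0.05 there were 2 members, Eci1 and Cpt1a, or 5.88%, against 6.86% of all tested genes. DESeq2 called 1 member, Eci1, against 0.438% of all genes called higher and 0.718% called in either direction by that tool. The log2 fold change of KO over WT lay above 0 for 29 of 34 members, 85.3% against 46.6% of all tested genes, with a median of 0.097 for the members and -0.014 for all genes. Scaled by library totals alone, which moved the median of all genes to -0.12, it lay above 0 for 18 members, 52.9% against 25% of all genes. Without WT 1 it lay above 0 for 17 of 34, 50% against 50.9%, and the median was -0.00073. In 27 members the log2 fold change was within 0.2 of 0, and the standard errors (SE, approximated from the test statistic) ran from 0.12 to 0.44. The labels do not say whether the 5 libraries of a label shared a litter or a preparation. The p-values set each difference against the spread between these libraries, which may differ from that between independent litters or preparations. Sample titles carry 1 prefix for each genotype, and a difference in handling that went with the prefix cannot be told apart from genotype. Because these are bulk heart samples, a lower share of cardiomyocytes and less RNA per cardiomyocyte cannot be told apart.

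**Figure D1:**
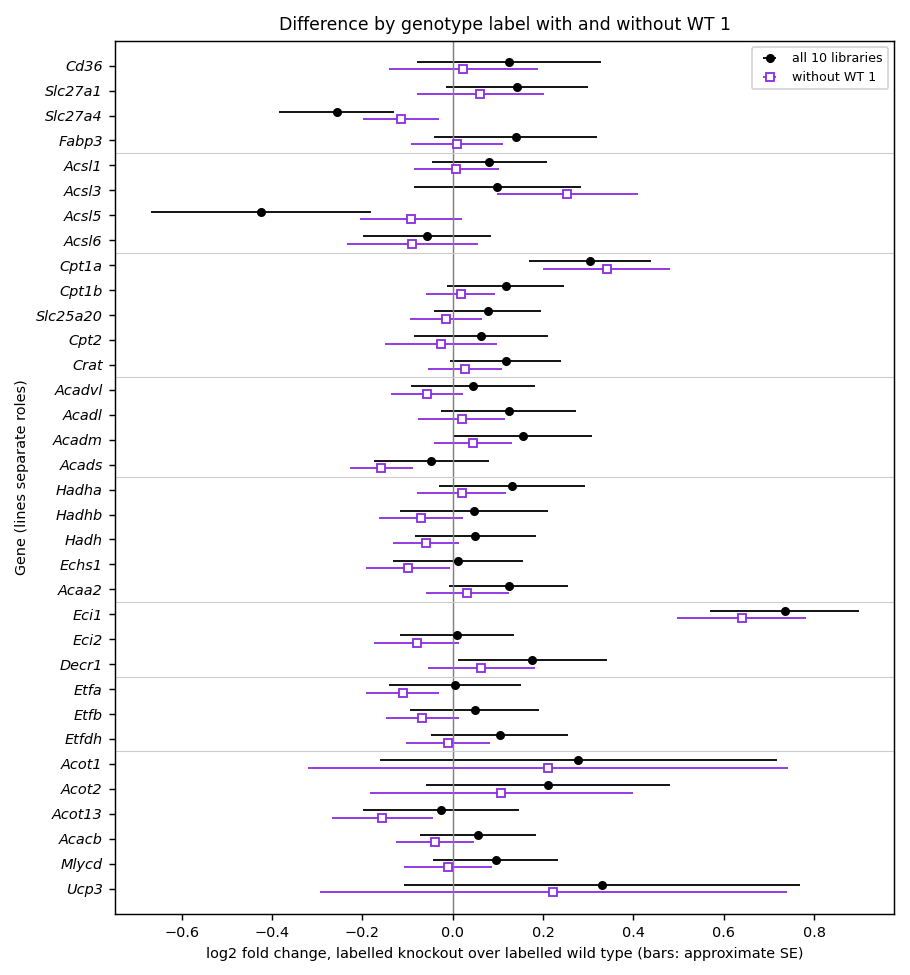
The log2 fold change of KO over WT is plotted for each of the 34 genes, with an approximate standard error as the bar, from all 10 libraries (filled circles) and without WT 1 (open squares). Most circles lie a little to the right of 0 and most squares close to 0, while Eci1 stays apart at 0.73 and 0.64.

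Levels between genes were compared as CPM per kilobase of the canonical transcript, averaged over the 10 libraries. Fabp3, the cytosolic fatty acid carrier, was highest at 2792 CPM per kilobase, followed by Hadhb at 985, the membrane receptor gene Cd36 at 863 and the medium-chain dehydrogenase gene Acadm at 641. The muscle isoform of carnitine palmitoyltransferase 1, Cpt1b, stood at 177 and the liver isoform Cpt1a at 14.3. Acsl1 was the leading long-chain acyl-CoA synthetase at 156, while Acsl3, Acsl5 and Acsl6 stood at 3.1, 3.62 and 1.65. Acsl6 and Slc27a4 were the lowest members, and Slc27a4 stood at 1.65 against 33.0 for Slc27a1. The members together spanned 1.65 to 2792 CPM per kilobase.

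**Figure D2:**
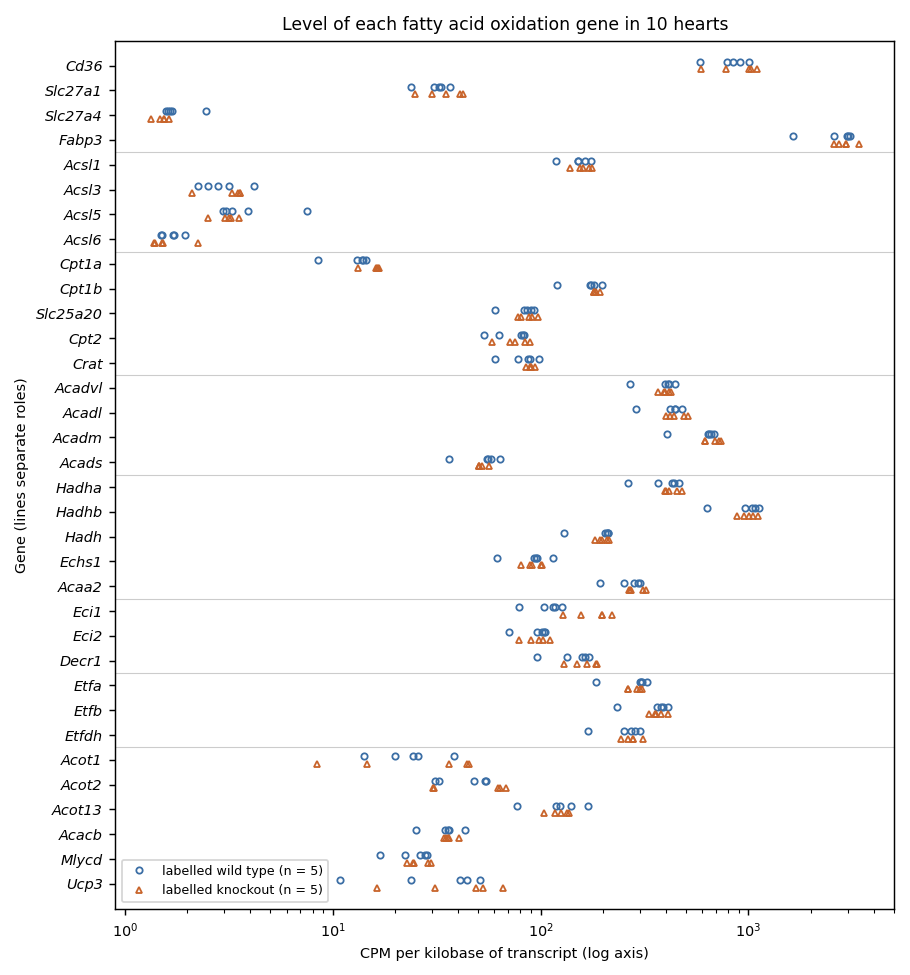
Each point is 1 library, with CPM per kilobase of transcript on a log axis and genes grouped by role, circles for libraries labelled wild type and triangles for those labelled knockout. Circles and triangles of a gene overlap except for Eci1, and Fabp3, Hadhb and Cd36 lead, at 2792, 985 and 863 CPM per kilobase on average.

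None of the uptake genes passed the test. Fabp3 had 1344, 2523, 2484, 2119 and 2461 CPM in WT 1 to WT 5 and 2801, 2436, 2257, 2122 and 2428 CPM in KO 1 to KO 5. WT 1 was far below the rest, and the other 9 libraries overlapped. Its log2 fold change was 0.14 ± 0.18 (SE) with all libraries and 0.0097 ± 0.10 without WT 1, with adjusted p of 0.888 and 0.996 by edgeR. A processed pseudogene, Fabp3-ps1, matches the Fabp3 transcript at 99.25% over 402 bases and held 10116 counts over all libraries against 713782 for Fabp3. Cd36, the receptor that brings in most long-chain fatty acid in heart, had 2040.2, 3207, 3515, 2759.98 and 2949 CPM in the WT and 3864, 3509, 2735, 2068 and 3591 CPM in the KO libraries. KO 4 was as low as WT 1, and the log2 fold change was 0.12 ± 0.20 (SE). Slc27a1, a fatty acid transport protein with acyl-CoA synthetase activity, had 128, 196, 178, 166 and 174 CPM in the WT and 228, 219, 161, 133 and 187 CPM in the KO libraries, and the same pair, WT 1 and KO 4, was lowest. Slc27a4, a second transport protein of this family, had 15.99, 10.97, 10.6, 10.3 and 10.8 CPM in the WT and 10.03, 10.7, 9.62, 10.1 and 8.71 CPM in the KO libraries. It ran the other way in WT 1, which was highest, and its log2 fold change of -0.26 ± 0.13 (SE) became -0.11 ± 0.084 without that library. Leaving out WT 1, the uptake genes had log2 fold changes from -0.11 for Slc27a4 to 0.061 for Slc27a1, and none passed.

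The acyl-CoA synthetases, which trap fatty acids in the cell as acyl-CoA, did not pass either. Acsl1, the main form in heart, had 687, 876, 942, 871 and 1007 CPM in the WT and 928, 805, 893, 1022 and 987 CPM in the KO libraries. WT 1 was lowest and the other 9 libraries overlapped. Acsl5 had 32.8, 17.001, 13.0, 13.3 and 14.2 CPM in the WT and 13.2, 14.2, 13.8, 10.9 and 15.4 CPM in the KO libraries. WT 1 stood at 238% of the median of WT 2 to WT 5, and the log2 fold change of -0.42 ± 0.24 (SE) shrank to -0.091 ± 0.11 without it. Acsl5 also overlaps Zdhhc6 on the opposite strand, which held 6611 counts against 5281 for Acsl5, and the strand setting of the counting is not given in the sources used here. Acsl3 and Acsl6 had log2 fold changes of 0.10 ± 0.19 and -0.058 ± 0.14 (SE). KO 4 held the lowest KO value of Acsl3, 8.04 CPM, and the highest KO value of Acsl6, 13.3 CPM. Acsl3 shares a stretch of 299 bases with the overlapping gene Utp14b, which held 608 counts. Leaving out WT 1, the synthetase genes had log2 fold changes from -0.091 for Acsl5 to 0.25 for Acsl3, and none passed.

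Within the carnitine shuttle the rate-limiting step showed the second-smallest p of all members, in its minor isoform. Cpt1a had 92.4, 91.1, 95.6, 55.8 and 85.9 CPM in WT 1 to WT 5 and 108, 106, 87.2, 109.8 and 109 CPM in KO 1 to KO 5. Every KO library but KO 3 lay above every WT library, and WT 4 was lowest of the 10. The log2 fold change was 0.30 ± 0.14 (SE) with all libraries and 0.34 ± 0.14 without WT 1, with unadjusted p of 0.0451 and 0.0328 and adjusted p of 0.714 and 0.754 by edgeR. Unlike most members, Cpt1a was not low in WT 1. Cpt1b, the isoform that carries most of the step in muscle, had 365, 531, 553, 531 and 606 CPM in the WT and 551, 549.8, 563, 591 and 550.1 CPM in the KO libraries. The KO libraries were close together, within a factor of 1.07, and lay inside the range of WT 2 to WT 5. The ratio of Cpt1a to Cpt1b per kilobase, which does not depend on how libraries are scaled, was 0.0782 ± 0.0254 in WT and 0.0859 ± 0.00815 in KO (SD, n = 5 each). The log2 difference was 0.19 and did not pass (two-sided exact permutation test, p = 0.437, adjusted over 4 ratios 0.437). WT 1 held the highest ratio of the 10 libraries, 0.117, against 0.0487 to 0.0801 in WT 2 to WT 5 and 0.0717 to 0.0914 in KO. Without it the log2 difference was 0.35 (exact permutation test, adjusted p = 0.127). A read-through gene, Gm44502, shares 1841 bases with Cpt1b and held 959 counts against 167797. Crat, which buffers acetyl groups by exchanging them between coenzyme A and carnitine, had 244, 361, 350.5, 314 and 398 CPM in the WT and 378, 343, 359, 364 and 365 CPM in the KO libraries. Slc25a20, the carnitine-acylcarnitine translocase, and Cpt2, which restores acyl-CoA inside the mitochondrion, had log2 fold changes of 0.077 ± 0.12 and 0.063 ± 0.15 (SE). Without WT 1 the shuttle genes had log2 fold changes from -0.026 for Cpt2 to 0.34 for Cpt1a, and none passed.

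The 4 acyl-CoA dehydrogenases, which open each round of oxidation on chains of falling length, did not pass in either direction. Acadm had 837, 1328, 1359.8, 1319.9 and 1399 CPM in the WT and 1479, 1273, 1517, 1267 and 1419 CPM in the KO libraries. Acadl, for long chains, had 717, 1106, 1111, 1042 and 1199 CPM in the WT and 1220.2, 1091, 1050.5, 999 and 1277 CPM in the KO libraries. In both genes WT 1 was alone at the bottom and the other 9 libraries overlapped, with log2 fold changes of 0.045 ± 0.087 and 0.02 ± 0.10 (SE) once it was left out. Acadvl, the very-long-chain enzyme of the inner membrane, had 855 ± 149 against 882 ± 47.6 CPM (SD, n = 5 each), with a log2 fold change of -0.057 ± 0.08 (SE) without WT 1. Acads, the short-chain enzyme, had 67.9, 109, 119, 104 and 104 CPM in the WT and 106, 94.9, 97.6, 94.4 and 94.8 CPM in the KO libraries. Its log2 fold change was -0.048 ± 0.13 (SE) with all libraries and -0.16 ± 0.069 without WT 1, where its unadjusted p was 0.0415 and its adjusted p 0.801 by edgeR. Of the 3 members with an unadjusted p under 0.05 without WT 1, Acads was the one below 0. Those 3 are 8.82% of members, against 6.02% of all genes tested without that library.

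None of the 5 genes for hydration, the later dehydrogenation and thiolysis passed. Hadha, whose protein carries the long-chain hydratase and dehydrogenase activities of the trifunctional protein, had 1059.95, 1724, 1771, 1484 and 1882 CPM in the WT and 1840.3, 1622, 1682, 1604 and 1929 CPM in the KO libraries. Hadhb, which carries the thiolase activity, had 1286, 2117, 2293, 1965 and 2187 CPM in the WT and 2249, 1939, 2054, 1801 and 2132 CPM in the KO libraries. Both had WT 1 lowest and overlapping groups otherwise, with log2 fold changes of 0.13 ± 0.16 and 0.047 ± 0.16 (SE). The ratio of Hadha to Hadhb per kilobase, the pair that faces each other across the 64 bases shown above, ran from 0.38 to 0.433 in WT and from 0.412 to 0.456 in KO (two-sided exact permutation test, p = 0.111, adjusted over 4 ratios 0.222). In WT 1 this ratio was 0.415, inside the range of the other libraries, although both genes were at their lowest there. The annotated gene models overlap on opposite strands through other transcripts. The pseudogene Hadhb-ps matches Hadhb at 99.79% over 1428 bases and held 23369 counts against 623067. Acaa2, the mitochondrial thiolase for medium chains, had 339, 529.6, 493.4, 444 and 513 CPM in the WT and 566, 477, 471, 468 and 545 CPM in the KO libraries. Hadh and Echs1, the dehydrogenase and hydratase for shorter chains, had 345 ± 63.1 against 357 ± 22.2 CPM and 215 ± 44.5 against 217 ± 20.5 CPM (SD, n = 5 each). Without WT 1 these genes had log2 fold changes from -0.10 for Echs1 to 0.033 for Acaa2, and none passed.

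Eci1 had the largest log2 fold change and the smallest p of the members. It encodes a mitochondrial enoyl-CoA isomerase that shifts double bonds so that unsaturated fatty acids can be oxidised. Eci1 (ENSMUSG00000024132, chromosome 17, 24645606 to 24658535, GRCm39) had 91.3, 148, 137, 121 and 134 CPM in WT 1 to WT 5 and 258, 231, 183, 149 and 231 CPM in KO 1 to KO 5. Every KO library lay above every WT library, though KO 4 exceeded WT 2 by little. It was the 1 member of 34 whose groups did not overlap with the KO libraries higher, 2.94% against 0.88% of all tested genes, and 0 members did so with the KO libraries lower, where the share was 0.898%. In either direction the share of all genes was 1.78%. Scaled by library totals alone, the Eci1 groups overlapped as well. The log2 fold change was 0.73 ± 0.16 (SE, unadjusted p = 0.000841) and did not pass by edgeR (adjusted p = 0.182, n = 5 each). Without WT 1 it was 0.64 ± 0.14 with an adjusted p of 0.135. It passed by edgeR without KO 4 (log2 fold change 0.84, adjusted p = 0.044) and without both WT 1 and KO 4 (0.74, adjusted p = 0.00165), and with all libraries by DESeq2 (adjusted p = 0.00311) and by limma voom with sample weights (0.00727). The shares of all genes called in either direction were 0.33% without KO 4, 0.521% without WT 1 and KO 4, and 0.545% by voom with weights. In the remaining 17 of 21 alternatives it did not pass, with adjusted p from 0.135 to 0.53 by edgeR or limma.

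Eci2, which encodes a second isomerase with the same kind of activity, had 91.1, 135, 137, 124 and 132 CPM in the WT and 144, 127, 117, 102 and 133 CPM in the KO libraries. WT 1 was lowest and the groups overlapped, and the log2 fold change was 0.01 ± 0.13 (SE, adjusted p = 0.99 by edgeR). The ratio of Eci1 to Eci2 per kilobase was 1.11, 1.22, 1.11, 1.09 and 1.13 in WT 1 to WT 5 and 1.99, 2.02, 1.73, 1.62 and 1.94 in KO 1 to KO 5. Set against Eci2, WT 1 was no longer low and the groups stood clear of each other. The mean ratio was 1.13 ± 0.0529 in WT and 1.86 ± 0.175 in KO (SD, n = 5 each), a log2 difference of 0.71 (two-sided exact permutation test, p = 0.00794, the smallest that 5 against 5 can give, and 0.0317 adjusted over the 4 ratios). This ratio was examined with the difference in Eci1 already known, so its p is not separate evidence for that difference. With any 1 library left out the exact permutation p was again the smallest the design can give, and adjusted over the 4 ratios it was 0.0635 each time. Decr1, the mitochondrial dienoyl-CoA reductase that works beside these isomerases, had 286, 469, 485, 395 and 508 CPM in the WT and 553, 495, 443, 384 and 545 CPM in the KO libraries, overlapping groups with a log2 fold change of 0.18 ± 0.16 (SE), or 0.063 ± 0.12 without WT 1. Eci2 stood at -0.08 ± 0.094 without WT 1.

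**Figure D3:**
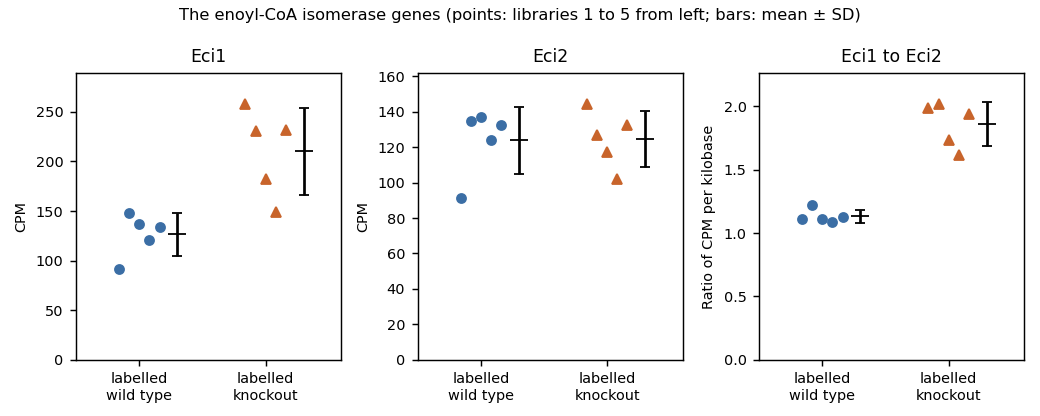
CPM of Eci1 and Eci2 and their ratio per kilobase are plotted for each library, in order from 1 to 5 within each label, with the mean and SD as bars. Eci1 and the ratio separate the groups, at 1.09 to 1.22 against 1.62 to 2.02 for the ratio, while Eci2 overlaps.

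Eci1 is also the 1 member on chromosome 17, the chromosome of Mapk13, where it lies 4.33 Mb from that gene. Over all tested genes 0.114% were called lower in the KO libraries and 0.353% in either direction. Within 500 kb of Eci1, 41 other genes were tested and 2 passed, both lower in the KO libraries. These were Rnps1, a splicing factor gene that ends 280 bases before Eci1 on the same strand, at 54.6 ± 4.45 against 29.4 ± 2.78 CPM, and Eme2, an endonuclease subunit gene. Abca3, a lipid transporter gene known from lung that lies farther upstream, had 18.7 ± 1.74 against 24.3 ± 0.98 CPM and did not pass (adjusted p = 0.0799 by edgeR). Dnase1l2 and E4f1, on the far side, had adjusted p of 0.704 and 0.774. None of the other 33 members had a called gene within 500 kb. A stretch of chromosome that travelled with the knockout allele and the allele itself cannot be told apart in this design.

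The 3 electron transfer genes, which hand electrons from the dehydrogenases to ubiquinone, did not pass. Etfb, the β subunit of the flavoprotein, had 209, 339.7, 325, 368 and 348 CPM in the WT and 367, 296, 323, 316 and 340.4 CPM in the KO libraries. Etfdh, the ubiquinone oxidoreductase, had 409, 658, 685, 607 and 729 CPM in the WT and 671, 587, 669.9, 635 and 754 CPM in the KO libraries. WT 1 was lowest in both and the other libraries overlapped. Etfa, the α subunit, had 492.7 ± 96.9 against 494 ± 37.6 CPM (SD, n = 5 each). The ratio of Etfa to Etfb per kilobase was 0.799 ± 0.0243 in WT and 0.777 ± 0.0566 in KO (SD, n = 5 each; two-sided exact permutation test, p = 0.421, adjusted over 4 ratios 0.437). All 3 genes had log2 fold changes above 0 with all libraries and below 0 without WT 1, from -0.11 for Etfa to -0.01 for Etfdh.

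Genes that limit or bypass the pathway included the members of widest spread between hearts. Ucp3, a mitochondrial carrier known to rise with fatty acid supply in muscle, had 67.7, 146, 117, 30.7 and 127 CPM in WT 1 to WT 5 and 151, 139, 46.6, 88.0 and 189 CPM in KO 1 to KO 5. WT 4 and KO 3 were lowest and KO 5 highest, a range of 6.14-fold across the 10 libraries. Acot2 had 74.3, 132, 130.3, 78.4 and 115 CPM in the WT and 163, 154, 73.1, 74.2 and 149 CPM in the KO libraries. Acot1 had 45.5, 87.3, 58.8, 32.1 and 55.7 CPM in the WT and 101, 103, 33.3, 19.3 and 82.7 CPM in the KO libraries. WT 4, KO 3 and KO 4 were low in both thioesterase genes, WT 1 was also low in Acot2, and KO 1 and KO 2 were highest in both. Low hearts thus lay under both labels and the groups overlapped. The log2 fold changes of Ucp3, Acot1 and Acot2 were 0.33 ± 0.44, 0.28 ± 0.44 and 0.21 ± 0.27 (SE), with adjusted p of 0.892, 0.913 and 0.887 by edgeR. Acot13, a smaller mitochondrial thioesterase, had 56.7, 87.0, 91.2, 125 and 103 CPM in the WT and 92.7, 76.6, 98.1, 100.4 and 86.3 CPM in the KO libraries. WT 4 was highest there, where it was low for Acot1 and Acot2. Acot13 overlaps BC005537 on the opposite strand, which held 77811 counts against 28088, so its level is uncertain. Acacb, the acetyl-CoA carboxylase that makes malonyl-CoA at the mitochondrion, had 318 ± 58.1 against 331 ± 21.1 CPM, and Mlycd, the decarboxylase that removes it, had 75.3 ± 14.8 against 80.4 ± 9.35 CPM (SD, n = 5 each). Without WT 1 the genes of this role had log2 fold changes from -0.16 for Acot13 to 0.22 for Ucp3, and none passed.

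The spread within groups was set against other genes by the SD of log2(CPM + 1) pooled over WT 2 to WT 5 and the KO libraries. Among 7847 tested genes with a mean of at least 10 CPM, Ucp3 lay at percentile 99.7 of this spread, Acot1 at 99.7 and Acot2 at 98.1, while Cpt1b lay at 7.23 and Hadh at 8.16. The median member lay at percentile 52.3. Pdk4 and Angptl4, PPAR targets that are no members, were low in the same libraries, and were picked after their values were seen. Pdk4, the kinase that shuts down pyruvate use, had 1695, 3439, 2789, 959 and 2628 CPM in the WT and 3831, 3368, 1016, 707 and 4891 CPM in the KO libraries. Angptl4, a secreted inhibitor of lipoprotein lipase, had 30.7, 52.2, 40.3, 3.7 and 22.3 CPM in the WT and 68.5, 58.3, 6.9, 4.7 and 62.7 CPM in the KO libraries. WT 4, KO 3 and KO 4 were the 3 lowest libraries for Pdk4, Angptl4 and Acot1, and KO 1 and KO 5 were among the 3 highest for Pdk4, Angptl4 and Ucp3. Ppara, the receptor gene itself, was highest in WT 4, KO 3 and KO 4, at 19.4, 21.6, 21.9, 32.0 and 30.5 CPM in the WT and 22.5, 24.4, 40.7, 37.2 and 25.7 CPM in the KO libraries. The ventricular marker sum was also highest in KO 4 and WT 4, at 62786 and 50095 CPM. In KO 3, at 40747 CPM, it lay below WT 5, at 44591 CPM. Myh6 alone held 24290 CPM of the KO 4 sum. Among the KO libraries each marker but Tnnt2 and Pln was highest in KO 4. Tnnt2 stood there at 7349 CPM, below KO 1, KO 3 and KO 5, and Pln at 7027 CPM, below KO 3. The part of the marker sum in this spread was not tested.

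**Figure D4:**
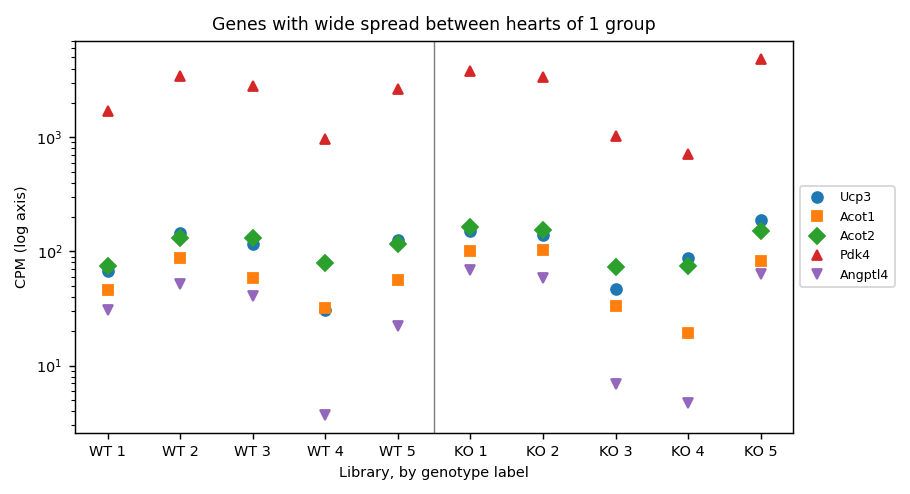
CPM on a log axis is plotted for 3 members (Ucp3, Acot1, Acot2) and 2 other PPAR targets (Pdk4, Angptl4) in each library. All 5 are low in WT 4, KO 3 and KO 4 beside most other hearts of their label, Ucp3 least so in KO 4, and Angptl4 spans from 3.7 to 68.5 CPM.

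WT 1 was the lowest library for most members. With TMM scaling WT 1 held the lowest CPM of the 10 libraries for 26 of 34 members, 76.5% against 22.5% of all tested genes. In those 26, WT 1 stood at 54.4% to 75.6% of the median of WT 2 to WT 5, with Fabp3 at the bottom and Acsl1 at the top. The median over all 34 was 65.5%, against 101% over all tested genes. WT 1 stood under 80% of that median for 29 members, 85.3% against 22.6% of all tested genes. The 8 members not lowest there were Slc27a4, Acsl3, Acsl5, Acsl6, Cpt1a, Acot1, Acot2 and Ucp3. Of these, Slc27a4, Acsl3 and Acsl5 were at their highest in WT 1. With library totals alone as the scale, WT 1 was lowest for 10 members and not 26. The sum of the 10 ventricular cardiomyocyte markers in WT 1 was 53.9% of the median of WT 2 to WT 5, the fibroblast sum 191% and the macrophage sum 327%. The part of these other cells in the levels of the members was not tested.

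**Figure D5:**
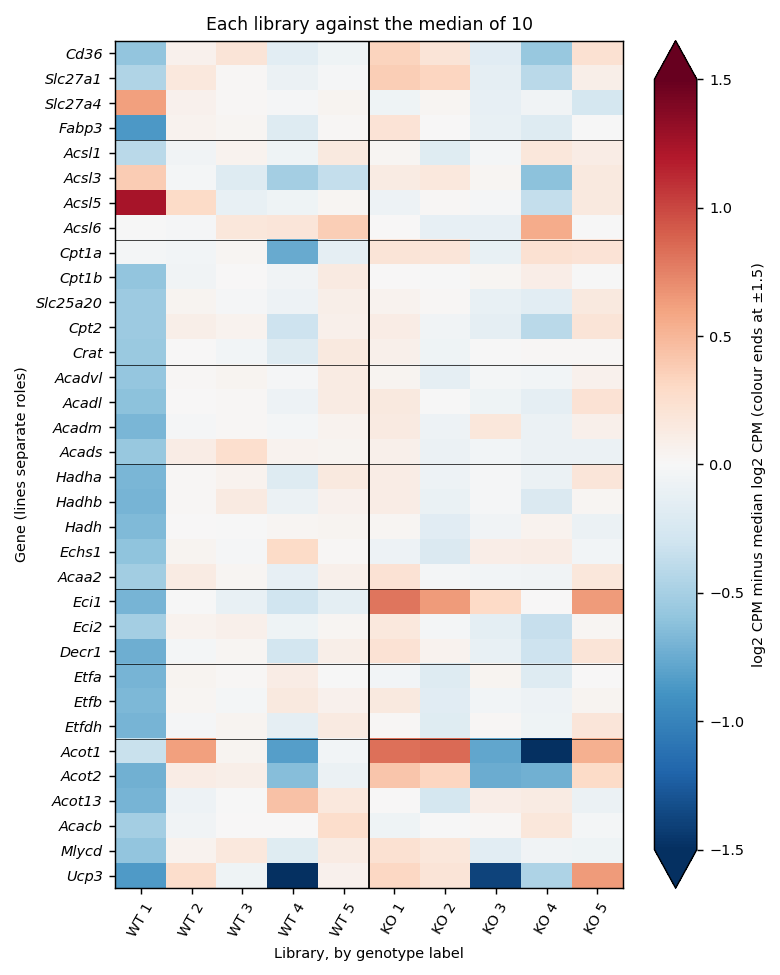
Each cell is the log2 CPM of a gene in a library minus its median over the 10 libraries, with genes as rows grouped by role and libraries as columns grouped by label; the colour ends at ±1.5. The WT 1 column is blue for 26 genes at their lowest and red for Slc27a4, Acsl3 and Acsl5, and the Ucp3, Acot1 and Acot2 rows vary within both labels.

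Other genes of fatty acid metabolism were read from 8 lists, and 0 of their members passed in either direction by edgeR, with all libraries or without WT 1. The share of all tested genes above 0, against which the counts below are read, was 46.6% with all libraries and 50.9% without WT 1. Among 25 further mitochondrial acyl-CoA enzymes 12 lay above 0 with all libraries and 5 without WT 1, and the median log2 fold change went from -0.0048 to -0.087. At an unadjusted p under 0.05 there were 3 of the 25, where the share of all genes was 6.86%. The smallest p were those of Mmut, methylmalonyl-CoA mutase on chromosome 17 (41245567 to 41274873), at 129 ± 17.3 against 175 ± 27.7 CPM (adjusted p = 0.558), and Acad11, a dehydrogenase gene, at 151 ± 18.4 against 180.2 ± 6.00 CPM (SD over 5 libraries, with an edgeR adjusted p of 0.653). Of 22 transcriptional regulators 14 lay above 0 both with and without WT 1, with medians of 0.063 and 0.02. The coactivator subunit gene Med1, at 44.2 ± 2.39 against 50.8 ± 2.15 CPM, and the corepressor gene Ncor1, at 136 ± 10.04 against 157 ± 6.96 CPM, came first, with adjusted p of 0.569 and 0.642 by edgeR. Of 16 tested PPAR targets outside the members 8 lay above 0, and 10 did so without WT 1. The pantetheinase gene Vnn1 was barely detected, at 2.57 CPM in WT 1, 0.232 to 0.653 in WT 2 to WT 5 and 0.15 to 0.472 in the KO libraries. Its log2 fold change of -1.79 ± 0.65 (SE) became -0.80 without WT 1. The peroxisomal enzyme gene Ehhadh had a log2 fold change of 0.21 ± 0.13 (SE), or 0.25 without WT 1.

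In the 18 tested genes of lipoprotein lipase and fatty acid binding, 7 lay above 0 with and without WT 1, with medians of -0.011 and -0.015. Fabp5, a fatty acid binding protein of macrophages and adipocytes among other cells, had 193, 23.8, 18.1, 16.5 and 18.5 CPM in the WT and 21.1, 19.5, 17.9, 15.9 and 16.8 CPM in the KO libraries. WT 1 alone was high, and the log2 fold change of -1.57 ± 0.74 (SE) became -0.079 without it. Acot9, a mitochondrial thioesterase gene, had 21.3 ± 1.63 against 18.9 ± 1.33 CPM (SD, n = 5 each). Of 19 storage and lipolysis genes 7 lay above 0 with all libraries and 11 without WT 1, and the median turned from -0.037 to 0.043. The lipid droplet gene Cidec, an adipocyte marker, stood at 85.1 CPM in WT 1 and at most 1.93 elsewhere, in the library where the adipocyte sum was 565 CPM. Mgll, monoacylglycerol lipase, had 89.0 ± 14.5 against 109 ± 24.9 CPM (SD, n = 5 each).

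Of 14 genes of malonyl-CoA supply and the AMP-activated kinase 5 lay above 0 with all libraries and 9 without WT 1, and the median turned from -0.03 to 0.02. The kinase subunit genes Prkag1 and Prkaa2 had log2 fold changes of 0.25 ± 0.11 and 0.19 ± 0.13 (SE), or 0.18 and 0.12 without WT 1. For ketone body use 5 of 6 genes lay above 0 with all libraries and 3 of 6 without WT 1, and the median turned from 0.089 to -0.017. The mitochondrial thiolase gene Acat1 stood at 0.13 ± 0.13 and the hydroxybutyrate dehydrogenase gene Bdh1 at 0.30 ± 0.33 (SE), or 0.025 and 0.19 without WT 1. For carnitine uptake and synthesis 4 of 6 tested genes lay above 0 with and without WT 1. Aldh9a1, an enzyme of carnitine synthesis, stood at 0.30 ± 0.13 and the peroxisomal transferase gene Crot at -0.18 ± 0.075 (SE), or 0.27 and -0.12 without WT 1.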

How the data were processed

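Bulk RNA-seq of 10 hearts was used, 5 labelled wild type and 5 labelled p38δ knockout, grouped by the genotype label. Per the labels' protocols, the authors aligned reads to GRCm39 with STAR 2.5.2. The authors deposited a table of expected counts for genes, made with RSEM 1.3.0 per the submitters' processing notes, and its values were already whole numbers. The sources used here do not give the annotation release, trimming or strand setting. Of 78298 gene identifiers 78168 were found in the GENCODE M39 annotation, and 1 listed pathway gene, Tmlhe, was not found. RSEM divides reads that fit several genes between them, which bears on Acot1 and Acot2.

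Genes were filtered with edgeR 4.0.16 in R 4.3.3 (filterByExpr, minimum count 10), which left 16700, scaled by TMM, and tested by the quasi-likelihood test with robust dispersion, genotype as the only term and Benjamini-Hochberg adjustment at 0.05. Each SE was approximated as the size of the log2 fold change over the root of its F statistic. CPM per kilobase divides by the length of the canonical transcript, and precision per gene is limited by the totals of 21403189 to 40627138 counts. Ratios of members were tested on the log2 scale by exact permutation (scipy 1.17.1). Near-identical copies were found with BLAST 2.17.0, at 95% identity or more over at least 200 bases. The fitting code was tested on simulated data.

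All 34 members were named. Values in every library were given for Eci1 and, in each role, for the 2 members of smallest p and the member of highest level per kilobase, and in each pathway list the 2 genes of smallest p were named. Values in every library of Cd36, Acot1, Eci2 and Acads, and of Pdk4, Angptl4 and Ppara, were added after their values were seen. Eme2 and the PPAR targets set beside Pdk4 and Angptl4 were named in the same way. Values in every library of Fabp5 also go beyond this rule. The members, lists and tests were chosen with earlier results of these data known. The 20 pairs of libraries within a label differed beyond sampling noise (chi-square per degree of freedom 8.93 to 162), and all were kept as separate samples. Alternatives were other scaling factors, other filters, DESeq2 1.42.0, limma 3.58.1 voom with and without sample weights, leaving out mitochondrially encoded genes, summing Acot1 and Acot2, and leaving out libraries.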

Additional observations from a re-analysis of the deposited data

Results flagged for a closer look

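In 14 of 76 groups of 5 values examined (each member under each label, and the log2 ratios), 1 library stood apart, judged by its gap to the nearest library as a share of the whole range in the group. Chance alone picks out about 1 in 20 groups, and groups of different genes share the same libraries. WT 1 was the low library in 6 of them, with a gap share of 0.749 for Acadvl, 0.86 for Acadm, 0.92 for Hadh, 0.718 for Eci2, 0.815 for Etfa and 0.73 for Etfb. It was the high library for Slc27a4 (0.89) and Acsl5 (0.796). KO 4 was low for Acsl3 (0.787) and high for Acsl6 (0.847). Cpt1a was low in WT 4 (0.756) and in KO 3 (0.845), and the log2 ratio of Cpt1a to Cpt1b was low in KO 3 (0.755). KO 1 was high for Acads (0.713).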

How the results depend on the processing

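Over 21 alternatives, the number of members called higher in the KO libraries was 0 except for 1, Eci1, under DESeq2, under voom with sample weights and with WT 1 and KO 4 both left out, and it ranged from 0 to 1 with 1 library left out (1 without KO 4). No other member was called in any of them. The number of members whose groups did not overlap went from 1 to 0 with library totals alone and to 2 with WT 1 and KO 4 left out, and ranged from 1 to 2 with 1 library left out. The share of all genes whose groups did not overlap was 1.78% with all libraries, 1.69% with library totals alone, 4.85% without WT 1 and KO 4, and 2.33% to 3.13% with 1 library left out, so 2 of 34 members is near the background where WT 1 and KO 4 are left out. The log2 difference in the Eci1 to Eci2 ratio was 0.68 to 0.76 with 1 library left out (exact permutation test, adjusted p = 0.0635 each time) and 0.75 without WT 1 and KO 4 (0.114). Before adjustment over the 4 ratios, each p was the smallest those sample sizes allow. With library totals alone WT 1 was lowest for 10 members in place of 26, and the share of all genes is not given on that scale. The median log2 fold change of the members ran from -0.00073 (without WT 1) to 0.14. Of 713 member values compared, 55 changed sign, none of them called before or after. Over all genes 59 were called by edgeR, 118 by DESeq2 and 91 by voom with sample weights. Apart from fewer libraries, the cause of these shifts was not tested. No paired analysis was possible because the knockout titles carry no replicate numbers shared with the wild type titles.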
